A study of Mus musculus with 4 samples.

Results

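CpG-rich regions that gain methylation without Tet2 and Tet3 are 1525 stretches of autosomal DNA, of 484555 regions in the authors' deposited table of a whole-genome bisulfite comparison. They were selected on measured values, namely chromosomes 1 to 19, at least 20 cytosine positions, fewer than 15 bp per position, and a level at least 20 percentage points higher in the knockout than in WT cells. The cells were primary hair matrix keratinocytes, the epithelial cells whose divisions feed the growing hair, from mice at postnatal day 4.5. One group was WT (2 libraries), and the other was labelled Tet2/Tet3 DKO, Krt14-Cre (2 libraries), in which the Cre is driven by the promoter of keratin 14, a gene of basal epithelial cells. The labels used here do not say whether the WT mice carried the Cre, what sex the mice were, which strain they were, or whether each library was a separate animal. The table gives 1 mean level per group and no reads or values per library, so the depth is unknown, no difference has a replicate check, and neither the deletion nor the cell type could be checked. The header does not name its groups, and the WT was read as group 1 from the order of names in the table's title, so every direction rests on that order.

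In mammals most cytosines followed by a guanine (CpGs) are methylated, and CpG-rich stretches known as CpG islands, many of them at gene starts, are the main unmethylated exception. Methyl groups on cytosine are oxidised by TET enzymes, which opens a route to their removal, and these enzymes are known to act at enhancers and at the borders of islands. CpG-rich DNA at an intermediate level is therefore a place where loss of TET activity can be read over many neighbouring CpGs. Bisulfite conversion reads 5-methylcytosine and 5-hydroxymethylcytosine alike, and an intermediate level in bulk DNA cannot tell apart cells, alleles and single molecules that differ.

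Few of these regions held a transcript start, and the starts they held had fewer CpGs than those in the denser unmethylated regions. Of the 1472 regions on chromosomes with start sequences in the RefSeq table, 24 (1.63%) held a listed start. Their 300-base start sequences (26 starts, GRCm38.p6) had a median of 9 CpGs (interquartile range 6.5 to 11.75). The median was 7 over all 32851 start sequences, and 25 (19 to 34) for the 5343 starts inside listed dense regions that were under 10% methylated in WT cells and did not gain. Those regions were themselves denser, with a median of 7.59 bp per position against 13 bp for the gained ones. The parts of start sequences inside gained regions are printed for 8 protein-coding genes. These had the largest differences among gene-end regions that overlap a listed start sequence. Only 35 of the 1525 regions (2.30%) overlapped a start sequence, so the stretches are examples and do not stand for the regions as a whole. Each runs 5′ to 3′ on the gene's own strand, with every CpG in capitals.
Aox4 (chr1:58210147-58210359, + strand): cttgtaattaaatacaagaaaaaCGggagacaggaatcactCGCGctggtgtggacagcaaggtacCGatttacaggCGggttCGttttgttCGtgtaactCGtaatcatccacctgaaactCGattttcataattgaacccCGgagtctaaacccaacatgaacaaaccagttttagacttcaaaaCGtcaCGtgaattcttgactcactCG
Capns2 (chr8:92901308-92901444, + strand): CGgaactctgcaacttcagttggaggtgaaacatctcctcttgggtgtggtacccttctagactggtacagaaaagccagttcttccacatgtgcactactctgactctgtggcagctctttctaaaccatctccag
Olfr750 (chr14:51071393-51071680, - strand): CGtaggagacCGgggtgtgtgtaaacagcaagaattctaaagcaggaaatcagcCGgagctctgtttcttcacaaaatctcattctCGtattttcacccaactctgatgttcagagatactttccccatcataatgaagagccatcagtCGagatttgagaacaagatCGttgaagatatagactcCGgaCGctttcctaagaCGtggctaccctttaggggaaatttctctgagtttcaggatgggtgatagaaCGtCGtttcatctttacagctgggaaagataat
Hspb3 (chr13:113663627-113663916, - strand): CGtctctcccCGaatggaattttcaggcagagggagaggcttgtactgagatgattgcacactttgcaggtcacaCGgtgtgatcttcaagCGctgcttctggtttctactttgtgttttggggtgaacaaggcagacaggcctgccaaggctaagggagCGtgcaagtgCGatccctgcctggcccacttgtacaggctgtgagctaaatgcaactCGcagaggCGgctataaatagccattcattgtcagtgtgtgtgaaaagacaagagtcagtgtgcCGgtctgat
Dctd (chr8:48099092-48099141, + strand): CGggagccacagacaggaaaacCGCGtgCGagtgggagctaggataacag
Ecrg4 (chr1:43730574-43730651, + strand): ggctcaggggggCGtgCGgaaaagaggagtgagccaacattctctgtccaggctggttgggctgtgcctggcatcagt
Rhd (chr4:134864508-134864585, + strand): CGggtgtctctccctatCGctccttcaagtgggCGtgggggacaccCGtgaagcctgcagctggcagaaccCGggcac
Cdsn (chr17:35542851-35543081, + strand): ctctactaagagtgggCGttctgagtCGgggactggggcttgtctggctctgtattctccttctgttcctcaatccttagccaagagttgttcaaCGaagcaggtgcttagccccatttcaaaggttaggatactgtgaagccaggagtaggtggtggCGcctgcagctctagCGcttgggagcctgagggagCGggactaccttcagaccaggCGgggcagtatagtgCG

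The region before Aox4, an aldehyde oxidase gene, ended 38 bp from the gene and was at 7.45% in WT cells and 50.7% in DKO cells. The stretch shown holds 13 CpGs in 213 bases. At Capns2, which encodes a small calpain subunit, the level was 51.2% in WT cells and 90.8% in DKO cells. The 137 bases shown hold 1 CpG, so the dense part of that region lay further into the gene. The same region was also counted for Lpcat2, a longer gene. The regions at the odour receptor gene Olfr750 (36.7% and 73.5%) and the small heat shock gene Hspb3 (32.2% and 68.6%) had 11 and 9 CpGs in the parts shown. At Cdsn, which encodes corneodesmosin, an adhesion protein of cornified cells, the region ended 20 bp before the gene and was at 56.7% in WT cells and 81.9% in DKO cells. The levels at Dctd (22.5% and 53.7%), Ecrg4 (41.1% and 69.8%) and Rhd (54.4% and 81.6%) differed by 31.2, 28.6 and 27.2 points. The levels are means over each whole region, of which the printed stretch is a part, and the Aox4 and Cdsn regions stop short of the start itself.

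The regions as a whole moved from intermediate to high methylation. Their median level was 42.4% in WT cells (interquartile range 30.3 to 53.8) and 75.4% in DKO cells (63.6 to 84.2). The median difference was 29.4 points (24.6 to 35.7, highest 75.1), and the authors' spread estimate for these regions in the authors' deposited table had a median of 3.69 points (3.20 to 7.47). Its lowest value was 3.20 points in the gained regions and in each comparison set, and separate regions of Tiam1 shared 3.40 points. The spread estimates below are therefore not separate measurements of each region. In the DKO 584 regions (38.3%) reached 80% and 82 (5.38%) stayed below 50%. The regions took up 55.7% of the unmethylated share that the WT had left (median), against 57.9% for the 29221 autosomal gains of 20 or more positions that were less dense. They were short, with a median width of 348 bp (60 to 2741) and a median of 28 positions, and together covered 602.9 kb. The count of positions was read as cytosines, and the header does not say whether both strands were counted. Dense regions that enclosed a whole start sequence had an estimated median of 1.48 positions per CpG (interquartile range 1.17 to 1.86).

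**Figure D1:**
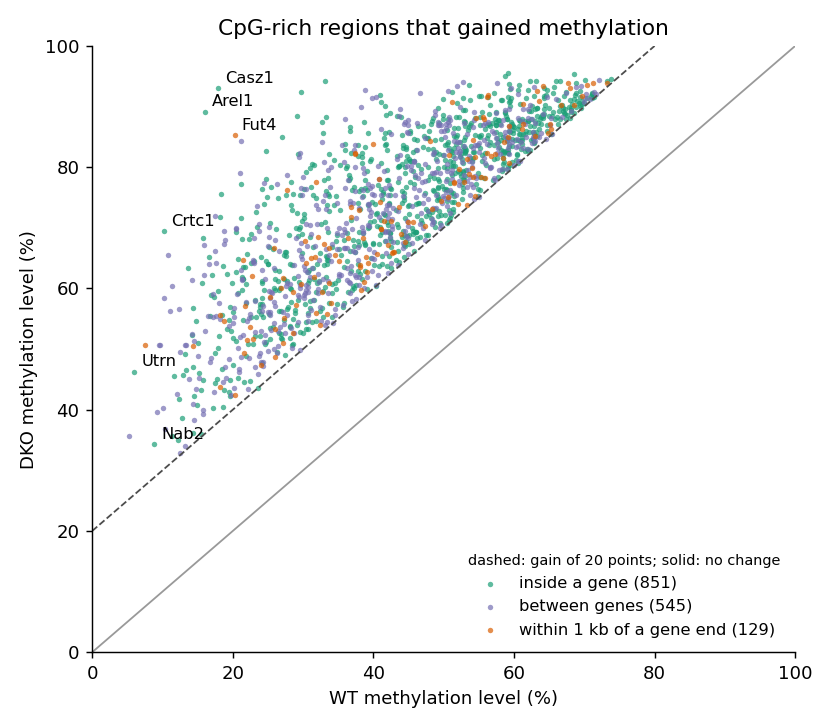
Methylation level in WT cells (x axis, percent) and in DKO cells (y axis, percent) for each of the 1525 CpG-rich regions that gained at least 20 points, coloured by position against protein-coding genes. Points lie above the dashed line because the regions were selected for that difference. The 3 kinds of position share the same cloud, and Casz1 and Arel1 stand at its upper left.

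Among the dense regions in the table, those that gained were a minority. The 1525 were 12.2% of the 12532 autosomal regions with the same number of positions and density. A further 153 were 10 to 20 points higher, 10803 differed by less than 10 points, and 51 were at least 10 points lower. In the authors' deposited table the extreme statistic of every region was either -4.02 or lower or 1.53 or higher, with none in between. It was below 0 in all 1525 gained regions. All 10803 regions that differed by less than 10 points were listed with a statistic of 1.53 or higher, so the bound differed between the 2 sides of 0. Small gains were listed on that side too. The 6657 regions under 10% in WT cells that did not gain had a median difference of 0.10 points (interquartile range -0.27 to 0.49, above 0 for higher in DKO cells). These shares therefore describe the listed regions and not all CpG-rich DNA. The gained share depended on the WT level. It was 0.105% of 6664 regions below 10% in WT cells, 19.7% of 549 at 10 to 20%, 66.7% of 844 at 20 to 40%, 70.5% of 924 at 40 to 60% and 21.3% of 919 at 60 to 80%. No region at 80% or more could gain as much, and none of 2632 did.

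At the same intermediate WT level, the share that gained was lower where cytosine positions were closest together. Of the dense regions at 20 to 60% in WT cells, 29 of 91 with under 7.5 bp per position gained (31.9%, 95% Wilson interval 23.2 to 42.0), and 112 of 209 at 7.5 to 10 bp (53.6%, 46.8 to 60.2). The share was 67.9% of 483 at 10 to 12.5 bp (63.6 to 71.9) and 75.6% of 985 at 12.5 to 15 bp (72.9 to 78.2). The intervals cover counting over regions only, and density was part of how the regions were selected, so the order is given as a description. Among the gained regions themselves the median difference was 25.4 points in the 40 densest and 30.6 points in the 917 at 12.5 to 15 bp per position. The densest were also the shortest (157.5 bp against 382 bp).

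**Figure D2:**
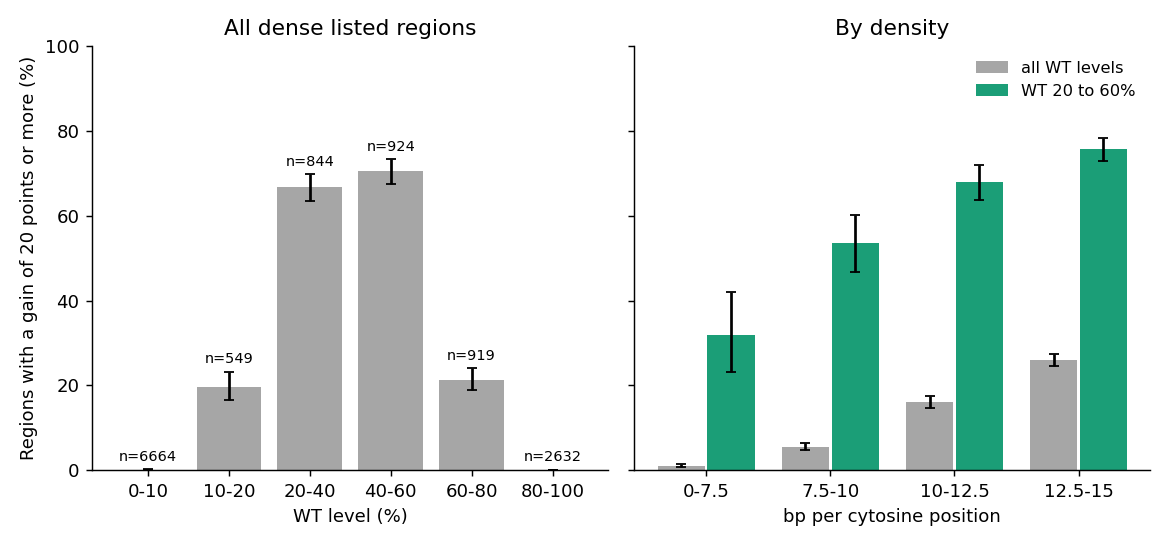
Percent of dense autosomal listed regions that gained at least 20 points, by WT level (left) and by bp per cytosine position (right, grey for all WT levels and green for WT levels of 20 to 60%). Bars start at 0 and error bars are 95% Wilson intervals over regions. The share peaks at WT levels of 20 to 60% (66.7% and 70.5%), and at that level it is lowest (31.9%) in the densest regions.

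Regions that started lower also ended lower, which the rule in part builds in, since it required a difference of at least 20 points. The 115 that were under 20% in WT cells had a median of 15.9%, and reached a median of 50.7% in DKO cells. Those at 20 to 40% in WT cells had a median of 63.8% in DKO cells, those at 40 to 60% one of 80.2%, and the 196 above 60% one of 88.9%. Width went with size of the difference, with medians of 27.1 points in the 500 regions under 300 bp and 41.3 points in the 19 of at least 1 kb. The regions near the limits of the rule had like values on both sides. The smallest difference inside it was 20.0 points and the largest outside it 19.9. The 432 regions at 14 to 15 bp per position had medians of 41.1% and 75.1%, and the 507 gains at 15 to 16 bp had 41.6% and 75.3%. The 199 regions of 20 positions had a median difference of 27.0 points, and the 32 of 19 positions one of 28.4 points.

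Most of the regions lay inside protein-coding genes and few near gene ends. Of the 1525, 851 (55.8%, Wilson interval 53.3 to 58.3) lay inside a gene, 545 (35.7%, 33.4 to 38.2) between genes and 129 (8.46%, 7.16 to 9.96) within 1 kb of either gene end. Dense regions that were under 10% in WT cells and did not gain lay at a gene end in 75.4% of 6657 cases and held a listed start in 62.4% of 6475. Their median distance to the nearest listed start was 0 bp, against 19096 bp for the gained regions. Dense regions that were equally intermediate in WT cells (20 to 60%) but did not gain numbered 554, with medians of 39.6% in WT cells and 37.9% in DKO cells. Of these, 21.5% lay at a gene end (18.3 to 25.1), and 19.09% had a start within 1 kb, against 6.05% of the gained regions at all WT levels. The sets were not matched. Of the gained regions 1214 (79.6%) were at 20 to 60% in WT cells, and their median density was 13 bp per position over all 1525, against 12 bp for the 554. The 4350 dense regions at 10% or more in WT cells that did not gain lay much as the gained ones did. Of these, 53.3% were inside genes, 33.7% between genes and 13.1% at gene ends (12.1 to 14.1). Their median distance to a listed start was 17338 bp, so a place inside genes was not particular to the gained regions. Less dense gains had 52.6% inside genes, 41.6% between genes and 5.71% at gene ends. No test was made of these shares, since neighbouring regions are not independent.

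Within genes the gained regions were spread over the whole body, with fewest near the start. For 670 regions inside a single gene of known strand, divided into 5 equal parts from start to far end, 14.5% lay in part 1, 17.5% in part 2, 21.5% in part 3, 23.0% in part 4 and 23.6% in part 5. The low dense regions inside genes ran the other way, from 39.4% in part 1 to 7.82% in part 5. Less dense gains were nearly even, from 18.8% to 20.8% per part. Dense regions at 10% or more in WT cells that did not gain rose towards the far end as well, from 13.2% in part 1 to 28.4% in part 5, so this order was not limited to the gained regions. At gene ends the far end was the more frequent. Of 105 such gained regions with a strand known, 32 lay at the start only, 65 at the far end only and 8 at both. This split was not counted for the other sets, so it cannot be called particular to the gained regions.

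**Figure D3:**
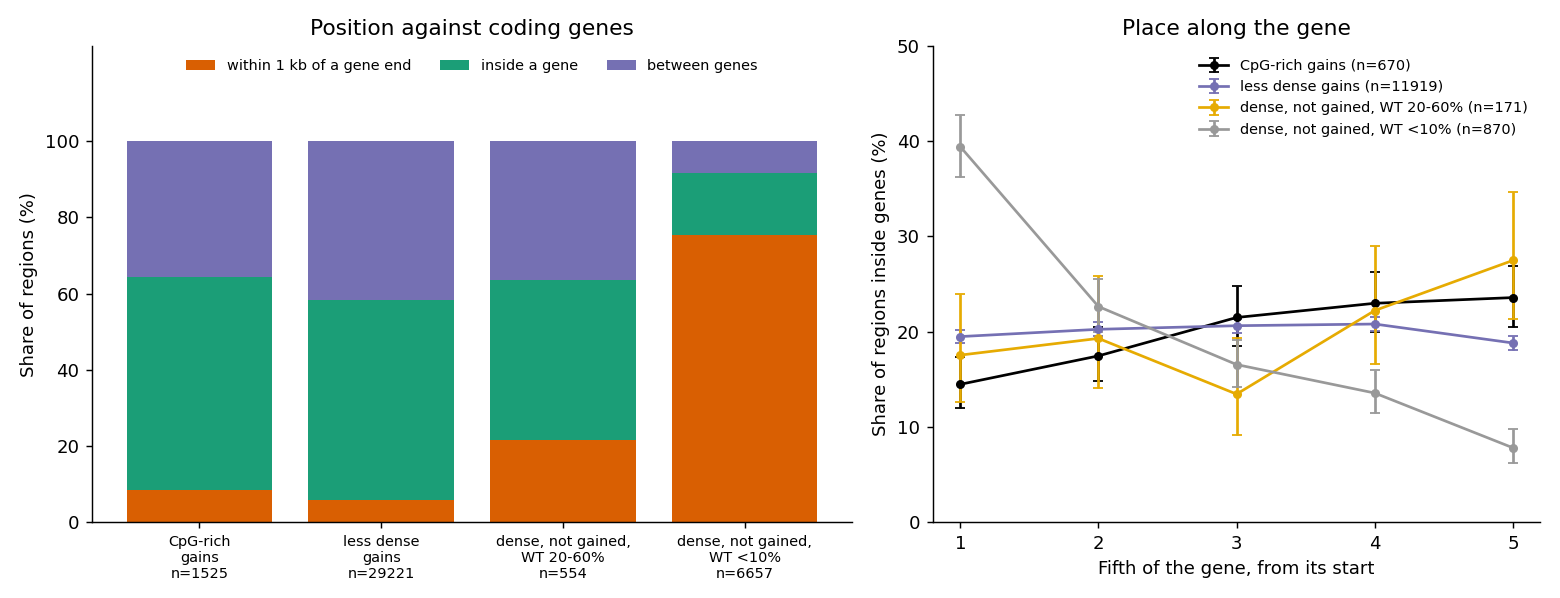
Left, share of regions (percent) within 1 kb of a gene end, inside a gene or between genes for 4 sets of listed autosomal regions of 20 or more positions. Right, share (percent, with 95% Wilson intervals) of regions inside genes by part of the gene from its start. The CpG-rich gains have 8.46% at gene ends against 75.4% for unchanged dense regions under 10% in WT cells, and rise from 14.5% in part 1 to 23.6% in part 5. Dense regions at 10% or more in WT cells that did not gain are not drawn, and 13.1% of them lay at gene ends.

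Few of the gained regions lay next to each other, while most had another gain of some density nearby. Of the 1525, 18 lay within 1 kb of another of them and 42 within 5 kb. Another gain of any density lay within 5 kb of 1018 (66.8%), the same share as for less dense gains (66.8%). A listed dense region under 10% in WT cells lay within 2 kb of 68 (4.46%), against 4.48% of less dense gains. Islands that are not in the table were not seen by this count. Of the 545 regions between coding genes, 112 overlapped an annotated long non-coding RNA gene, and 113 lay more than 100 kb from any coding gene. Every autosome held some, from 10.1% of its dense regions on chromosome 14 to 15.7% on chromosome 13. Within 10 Mb of Tet2, 15 of 73 dense regions gained (20.5%), and within 10 Mb of Tet3 12 of 93 (12.9%).

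The largest differences inside genes or at their ends were at genes of varied function. A region of 1060 bp with 72 positions inside Casz1, a zinc finger transcription factor gene (chromosome 4, 148873822 to 148874881), was at 17.9% in WT cells and 93.1% in DKO cells, with a spread estimate of 3.51 points in the authors' deposited table. Inside Arel1, which encodes a ubiquitin ligase (chromosome 12, 84941667 to 84942060), the levels were 16.05% and 89.2% (spread estimate 3.97 in the authors' deposited table). Fut4, a fucosyltransferase gene, held a region of 94 positions 795 bp from its start (chromosome 9, 14750273 to 14751327), at 20.2% and 85.3% (spread estimate 3.27 in the authors' deposited table). These 3 differences were 75.1, 73.1 and 65.0 points.

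Nmnat2, an enzyme gene of NAD synthesis, went from 29.7% in WT cells to 92.4% in DKO cells. The interferon regulatory factor gene Irf2 was at 33.2% and 94.2%. Cdk8, a kinase of the Mediator complex, held a short dense region (25 positions in 185 bp) at 29.1% and 88.4%. All 3 regions lay inside their genes and ended at 88.4% or more. Crtc1, a coactivator of CREB, had one of the lowest WT levels, 10.3%, and was at 69.5% in DKO cells. Rfx8 (27.0% and 85.0%) and Lmo1, a LIM-domain gene (18.3% and 75.6%), completed the 10 largest with Axin2, described below. Between genes the largest differences were 63.2 points at a region 117256 bp from Hdac4 (21.1% and 84.4%), 58.1 points 24169 bp from Zbtb38 (21.0% and 79.1%) and 54.8 points 24372 bp from Grhl3 (10.8% and 65.6%). Grhl3 encodes a transcription factor of epidermal barrier formation.

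The widest regions kept the same pattern over more than a kilobase. The widest, 2741 bp with 184 positions inside Chst3, a chondroitin sulfotransferase gene (chromosome 10, 60184438 to 60187178), was at 36.0% in WT cells and 83.9% in DKO cells, with a spread estimate of 3.32 points in the authors' deposited table. At the hyaluronidase gene Hyal2, 1751 bp were at 37.4% and 82.4%. Inside Dot1l, a histone H3 lysine methyltransferase gene, 1592 bp with 145 positions were at 34.3% and 81.3%. Wnt11 (50.4% and 83.9%) and the endocytic adaptor gene Hip1r (44.1% and 85.3%) held regions of 1576 and 1465 bp. At the far end of Hoxa3 a region of 1742 bp was at 28.6% and 59.3%, the lowest DKO level of these 6.

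The densest regions were very short, and those named here differed by 25.4 to 30.7 points. With 3 bp per position, 66 bp inside S100a3, a calcium-binding protein gene of the hair cuticle, were at 33.4% in WT cells and 64.1% in DKO cells. Those inside Iffo1 (60 bp, 47.6% and 73.0%) and Bahcc1 (91 bp, 53.1% and 78.5%) ended at under 80%. A region inside the splicing factor gene Srrm2 (14.8% and 40.8%) and one near an end of Hoxb7 (22.1% and 51.5%) ended below 60%. The spread estimates of these 5 lay between 3.73 and 5.02 points in the authors' deposited table.

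Regions close to unmethylated in WT cells were rare, and most of those named here ended at intermediate levels. The lowest inside a gene was in Utrn, the utrophin gene, at 5.97% in WT cells and 46.3% in DKO cells. Nab2, a corepressor of EGR factors, held 818 bp at 8.76% and 34.3%, and this region lay 677 bp from a listed dense region under 10%. Crtc1, given above, followed and ended higher (10.3% and 69.5%), and after it came Gpr179 (11.3% and 35.7%) and Sec14l1 (11.6% and 45.5%). Of all 1525, 7 were under 10% in WT cells.

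Of 20665 autosomal protein-coding genes, 905 (4.38%) held at least 1 of the regions inside or within 1 kb of an end, and they were 11.3% of the 7982 genes with any dense listed region. Genes with such a region were long, with a median of 56710 bp against 29976.5 bp for genes with a dense listed region and 17491 bp for all, and 817 of the 905 held only 1. Tiam1, an activator of the GTPase Rac, held the most, 6 regions at 42.1% to 57.5% in WT cells and 65.4% to 89.1% in DKO cells. Tshz2, a zinc finger gene, held 5, with DKO levels of 53.6% to 83.6%. A further 6 genes held 4 each, namely Casz1, Wwox, Tbc1d16, Gse1, Kcnq1 and Lrmda. In Casz1 the other 3 regions were at 51.3% to 62.6% in WT cells and 80.9% to 90.2% in DKO cells, so none of them started as low as the first. Regions of 1 gene share that gene and are not separate evidence for it.

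Transcription factors of the hair matrix and of follicle stem cells were among the genes with such regions. The lists were chosen with earlier results of these data known, genes with such a region were long as given above, and no list was tested. Where a gene of these lists held more than 1, the region with the largest difference is given. On the hair matrix list 7 of 27 genes (25.9%) held at least 1, against the 4.38% of all genes and 11.3% of those with a dense listed region, and 21 of the 27 had a dense listed region (33.3% of these held at least 1). Beside Casz1, Bcl11b, a transcription factor gene active in skin and T cells (chromosome 12, 107930535 to 107931051), was at 13.6% in WT cells and 63.4% in DKO cells, with a spread estimate of 3.56 points in the authors' deposited table. The retinoic acid receptor gene Rara (28.4% and 73.8%) and its partner Rxra (26.0% and 61.5%) each had one, as did Runx1 (21.9% and 60.7%), Klf5 (63.3% and 92.6%) and Cux1 (61.8% and 85.9%). Of 15 listed genes of the outer root sheath and of follicle stem cells 5 did (33.3%), or 38.5% of the 13 with a dense listed region. Tcf7l1 (30.1% and 76.5%) and Tcf7l2 (22.6% and 68.9%) encode transcription factors that bind DNA in Wnt signalling. The integrin gene Itga6 was at 18.4% and 55.6%, Nfatc1 at 40.1% and 71.2%, and Sox9, a factor of the outer root sheath and its stem cells, at 24.2% and 47.7%. Of the epithelial lineage factors 2 of 19 held 1, Satb1 (24.1% and 60.9%) and Ets2 (54.1% and 81.6%).

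Each of 5 lists of signalling genes had members with such a region. Of the Wnt list it was 4 of 38 (10.5%). Inside Axin2, an inhibitor and target of the pathway (chromosome 11, 108941658 to 108942383), 60 positions were at 24.8% in WT cells and 82.6% in DKO cells, with a spread estimate of 5.28 points in the authors' deposited table. The coreceptor gene Lrp6 was at 37.9% and 81.9%, and the ligand gene Wnt4 at 35.8% and 63.5%. Of the BMP and TGF-beta list 2 of 33 held 1 (6.06%), the ligand gene Bmp7 (33.4% and 65.2%) and the receptor gene Acvr2b (35.0% and 61.4%). Of the Notch list 2 of 25 did (8%), the receptor gene Notch3 (55.5% and 89.1%) and the ligand gene Jag2 (27.3% and 54.7%). Of the Shh list 2 of 13 did (15.4%), the receptor gene Ptch1 (21.4% and 63.6%) and the coreceptor gene Boc (14.3% and 52.3%). Of the FGF, EGF, IGF and Eda list 4 of 30 did (13.3%), namely the receptor genes Igf1r (36.9% and 82.3%), Fgfr2 (23.9% and 57.0%) and Fgfrl1 (55.2% and 78.4%) and the binding protein gene Igfbp3 (19.5% and 43.0%). All 5 shares were above the 4.38% of all genes. Over the genes with a dense listed region they were 16% for Wnt, 7.41% for BMP and TGF-beta, 11.8% for Notch, 20% for Shh and 18.2% for the FGF, EGF, IGF and Eda list, against 11.3% of all such genes, and no list was tested.

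**Figure D4:**
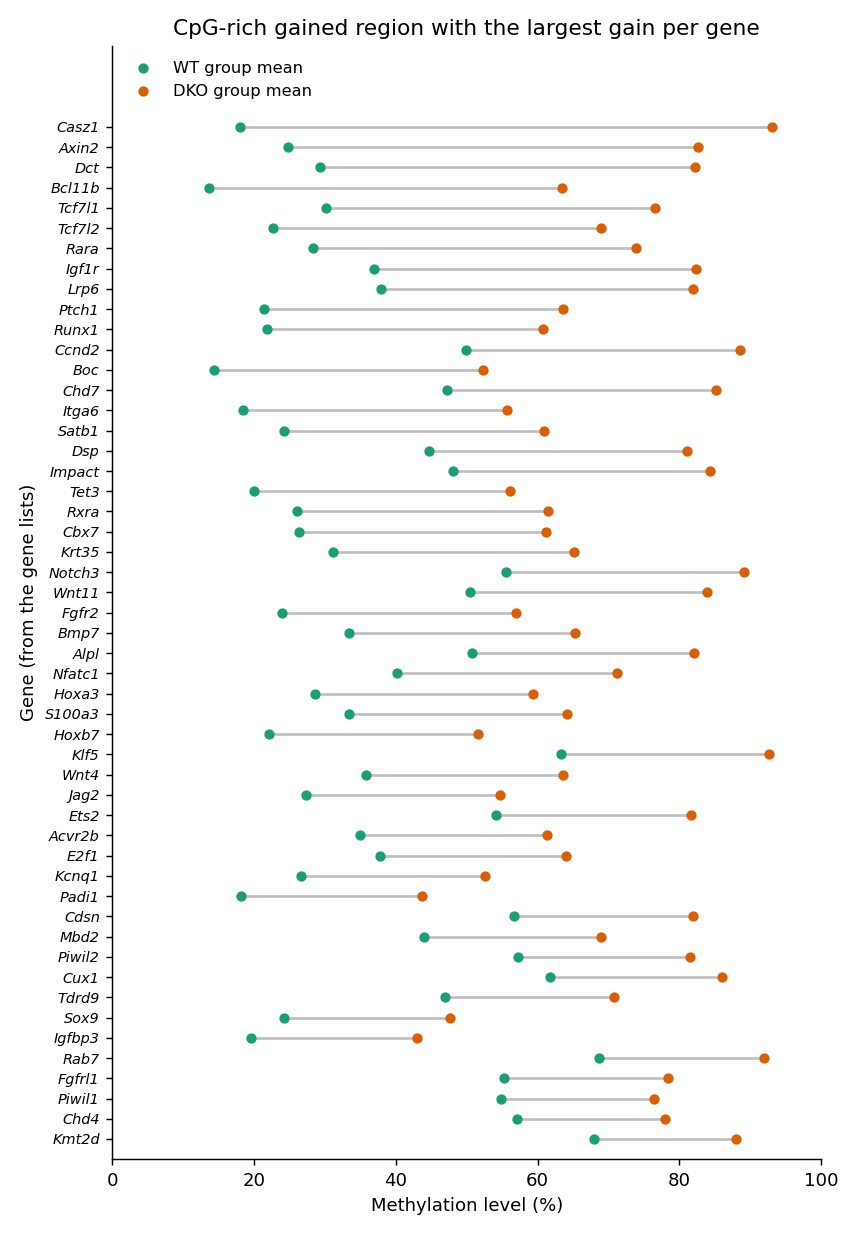
Group mean methylation level (percent) in WT cells and the DKO of the CpG-rich gained region with the largest difference, for 51 genes of the gene and marker lists that held 1. Genes are ordered by the difference, from Casz1 (17.9% and 93.1%) at the top to Kmt2d at the bottom. The lines join the means and are not errors.

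On the keratin lists 1 gene held such a region, and most genes held a gain of some density. Few keratin genes had a dense listed region at all, so the count is small for any reading against the 11.3% of genes with one. None of the 8 autosomal inner root sheath and companion layer keratin genes had a dense listed region, and 7 of the 8 held a gain of at least 20 points of any density. Of 14 basal and epidermal keratins, 3 had a dense listed region, 11 a gain of any density, and none a CpG-rich one. Of 14 keratins of the hair cortex and cuticle 1 did, Krt35 (7.14%), where a region of 555 bp reached across a gene end and was at 31.1% in WT cells and 65.1% in DKO cells. Outside the lists, and chosen after their values were seen, Krt42 (59.5% and 91.4%) and Krt20 (39.7% and 65.0%) also held 1 each. On the list of hair shaft structure and junction genes 4 of 24 held 1 (16.7%). Beside S100a3 and Cdsn these were the desmoplakin gene Dsp (44.6% and 81.0%) and the peptidylarginine deiminase gene Padi1 (18.1% and 43.7%), the latter across the far end of its gene. Of the 24 genes 13 had a dense listed region (30.8% of these held at least 1), and the list was not tested.

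Of 79 developmental genes that are known Polycomb targets, 7 had a dense listed region, 14 a gain of any density and 0 a CpG-rich gain. With 11.3% of all genes with a dense listed region holding one, a count of 0 among 7 is close to that background. The clustered protocadherins had 0 of 57 as well, but 33 of these had a dense listed region. The reading for the 7 Polycomb targets does not carry over to them, and neither list was tested. Hox genes had 2 of 39 (5.13%), Hoxa3 and Hoxb7, both at gene ends. Germline genes had 3 of 34, with Piwil2 at 57.2% and 81.4%, Tdrd9 at 46.9% and 70.8% and Piwil1 at 54.8% and 76.4%. Imprinted genes had 2 of 37, Impact at 48.0% and 84.3% and Kcnq1 at 26.6% and 52.6%. All 5 started at intermediate levels. Over the genes with a dense listed region the shares were 10.5% for Hox, 18.8% for germline and 9.09% for imprinted genes, against the 11.3%.

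Among regulators of chromatin 6 of 32 genes held 1 (18.8%, against 4.38% of all genes). The remodeller gene Chd7 was at 47.2% in WT cells and 85.1% in DKO cells, and Chd4, another remodeller gene, at 57.1% and 77.9%. The Polycomb subunit gene Cbx7 lay lower, at 26.4% and 61.2%. The methyltransferase gene Kmt2d was at 67.9% and 88.0%, and Satb1 is given above. Of 21 DNA methylation and demethylation genes 2 held 1, the methyl-CpG binding protein gene Mbd2 (43.9% and 69.0%) and Tet3 itself. The Tet3 region (chromosome 6, 83454820 to 83455062), 2146 bp inside the gene and 483 bp from a listed dense region under 10%, was at 20.0% and 56.1%. Whether it lies in or near the deleted part was not tested. Cell cycle genes had 2 of 30, Ccnd2 (49.9% and 88.6%) and E2f1 (37.8% and 64.0%), and housekeeping genes had 1 of 26, Rab7 (68.7% and 91.9%). Over the genes with a dense listed region the shares were 23.1% for chromatin regulators and 12.5% for DNA methylation and demethylation genes. They were 9.52% for cell cycle genes and 5.88% for housekeeping genes, against 11.3% of all such genes, and no list was tested.

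Among markers of other skin cells the counts were close to the 4.38% of all genes or too small to read. It was 1 of 19 (5.26%) fibroblast and dermal papilla markers (Alpl, 50.7% in WT cells and 82.1% in DKO cells), 1 of 11 (9.09%) melanocyte markers (Dct, an enzyme gene of melanin synthesis, 29.3% and 82.3%), 0 of 18 immune markers and 0 of 18 endothelial and muscle markers. Of these markers 7, 4, 0 and 1 had a dense listed region. Methylation at a marker gene does not measure how many such cells were in a sample, and the part of cell mixture in the results was not tested.

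Dense regions with a loss of the same size were few, and their spread was larger. In all 3 were at least 20 points lower in DKO cells. One lay in Tmprss11d, a transmembrane protease gene (62.3% in WT cells and 41.3% in DKO cells, spread estimate 6.37 in the authors' deposited table). The others, both on chromosome 14 outside coding genes, were at 78.3% and 57.3% and at 64.3% and 37.5%, with spread estimates of 9.24 and 8.37 points in the authors' deposited table, above the highest of any gained region (7.47). Gained regions were listed only at a statistic of -4.02 or lower, while the other side of 0 began at 1.53. The spreads of gains and losses are therefore not on equal terms, and the part of this bound in their difference was not tested.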

How the data were processed

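The submitters' processing notes name Trim Galore, Bismark and the build GRCm38 (mm10). The region caller is not given in the sources used here, nor are smoothing and filters. Per the file headers, the authors' deposited table gives each region a mean level per group as a fraction, printed here as a percent, a count of cytosine positions, a statistic (a score) and a spread estimate. It holds no p-values and no read counts, so levels were described by medians and ranges, with 95% Wilson intervals for shares of regions. The members and gene lists were chosen with earlier results of these data known. Genes came from a RefSeq table of GRCm38.p6 (21900 protein-coding), and strand from its start sequences, which cover 79.9% of them. A region within 1 kb of either gene end was put there before inside or between. Named genes are those with the largest gain, density, width, lowest WT level or most regions, up to 2 per list, and, chosen after values were seen, the other list genes and those whose start sequences are shown. Positions and distances were tested on simulated data. Analyses used Python 3.11.15, pandas 2.3.3, numpy 2.4.6, scipy 1.17.1 and matplotlib 3.10.9. Some regions that meet the rule for named genes are not reported here.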

Additional observations from a re-analysis of the deposited data

How the results depend on the processing

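The 7 main values were recomputed under 12 other settings, and 36 of 68 values stayed within the interval of the reported one (for the number of regions, within 1.5 times it). Those with X and Y added, with neighbours within 500 bp merged, and without 10 Mb around Tet2 and Tet3 (a setting chosen after seeing the data) all did. With fewer than 10 bp per position 194 regions were left (3.02% of dense regions), 63.4% of them inside genes, with medians of 45.5% in WT cells, 76.5% in DKO cells and 26.7 points of gain. With fewer than 20 bp there were 5174 (22.3%), with medians of 40.7% in WT cells and 31.3 points. With at least 40 positions there were 296 (3.82%), 60.8% inside genes, with medians of 39.7% in WT cells and 33.0 points, and with at least 10 positions 3795 (17.3%), with 45.0% and 27.6 points. A gain of at least 30 points left 724 (5.78%), 6.08% at gene ends, with medians of 36.4% in WT cells and 36.3 points, and one of at least 10 points gave 13.4% of dense regions and a median of 28.4 points. The share at gene ends was 4.66% with a window of 500 bp, 13.8% with 2 kb and 14.6% with all annotated genes, and that inside genes 58.7%, 51.5% and 58.6%. No paired analysis was possible because the table holds group means only, and for the same reason no library could be left out. The depth is unknown, so no level has an interval.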
